A study of Mus musculus with 7 samples.

Results

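Among 18194 mouse genes measured on 7 arrays, 86 (0.473%) had signals in both cultured ectoderm and adult brain that were at least 2-fold above every other cell type and tissue of the study. A gene was taken into this set when the lower of its signals in ectoderm (Ect) and brain (Brain), divided by the highest of its signals in the other 5 arrays, was 2 or more. Signals under 50, which were taken as background, were raised to 50 before division. Each gene was represented by 1 probe set, the one annotated to that gene alone with the highest mean log2 signal. Because these signals chose the genes, the levels below are a description and no test is given.

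RNA was hybridized to Affymetrix GeneChip arrays of the mouse genome, with 1 array for each cell type or tissue, so that no spread between replicates is known. SK7_ESC is the undifferentiated male mouse ES cell line SK7, which carries a transgene for GFP under the Pdx1 promoter. Ectoderm (Ect), endoderm (End) and paraxial mesoderm (Pme) were obtained from SK7 in culture, and they therefore carry the same transgene and come from 1 line. Brain, Liver and Sk_muscle (skeletal muscle) were whole tissues of male ICR mice over 9 weeks old. The labels name the strain as ICR for the cultured samples as well. The number of animals or cultures behind an array was not stated in these sources.

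Neural tissue arises from ectoderm: the neural plate forms progenitors, the later radial glia, and these divide to give neurons and afterwards astrocytes and oligodendrocytes. Progenitors are known by transcription factors of the SOX, POU and ZIC families and by Notch signalling, and young neurons by neuron-type tubulin, microtubule-associated proteins, neurofilaments and RNA-binding proteins of the Hu family. Synapses, dense-core secretory granules, ion channels and myelin belong to a later stage, and the adult brain holds all of these cell types together.

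The markers of these stages agreed in part with the labels. Of 14 neuron markers, 12 were above background in Ect and 13 in Brain, against 4 in SK7_ESC and 1 each in End, Pme, Liver and Sk_muscle. Their summed signal was 2944 in Ect and 21334 in Brain, against 1810 in SK7_ESC and 1224 in End, where Stmn2, a stathmin of neurons, alone gave 1275.4 and 1053.5, and at most 299 in the other 3 arrays. Of the 14, 7 belonged to the shared set. The rule itself placed these 7 at 100 or more in Ect and Brain and at least 2-fold lower elsewhere. Their part in the counts and sums was thus fixed by the selection. Dcx, a microtubule-binding protein of migrating neurons, was under background in all 7 arrays, with 26.9 in Ect and 16.9 in Brain. Of 10 measured markers of radial glia and neural progenitors, 8 were above background in Ect, with a sum of 8186, and 7 in Brain, with a sum of 1777, while Pax6 was at 30.5 in Ect. The sum was 3444 in SK7_ESC, where Sox2 alone gave 3029.7. Among these progenitor markers Fabp7 belonged to the shared set, so that its part was fixed as well. Astrocytes and oligodendrocytes were nearly unmarked in Ect. There, 2 of 8 astrocyte and 2 of 9 oligodendrocyte markers were above background, against 8 and 8 in Brain. Microglia, endothelium, choroid plexus and pluripotent cells had 0 markers above background in Ect. Of 13 markers of fibroblasts and feeder cells, 9 were above background in Ect and 5 in Brain, with sums of 3682 and 2531, against 11 and 13679 in Pme. Of 9 neural crest markers, 5 were above background in Ect and 2 in Brain. Over all genes, 47.2% were above background in Ect and 49.9% in Brain, so that counts near these shares do not by themselves show a cell type. The part of fibroblasts, feeder cells, neural crest and the other cell types above in the shared signals was not tested. In such bulk RNA, fewer cells of a type and less RNA per cell cannot be told apart.

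The rule required lower signals in the other arrays, and these still varied. The median signal was 235 in Ect and 531 in Brain, against 28 in SK7_ESC, 26.2 in End, 32.4 in Pme, 11.9 in Liver and 15.9 in Sk_muscle. For 39 of the 86 genes all 5 other arrays were under background, so that their ratios are lower bounds. For the other 47 genes at least 1 of the 5 was above background, up to 1256.9 for Stox2 and 773.4 for Ints6, both in Pme. In the cultured samples, 25 of the 86 were above background in SK7_ESC, 20 in End and 31 in Pme, against 44.4%, 45.6% and 47.4% of all genes. In the tissues, 8 were above it in Liver and 12 in Sk_muscle, against 43% and 43.3% of all genes. The ratio that defined the set ran from 2.04 to 9.58 with a median of 2.94, and 41 genes reached 3, 25 reached 4 and 15 reached 5. The same rule gave 31 genes (0.17%) for End with Liver, 30 (0.165%) for Pme with Sk_muscle, 21 (0.115%) for End with Brain and 16 (0.0879%) for Pme with Brain. These counts share the Brain array in part and were not tested against each other.

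**Figure D1:**
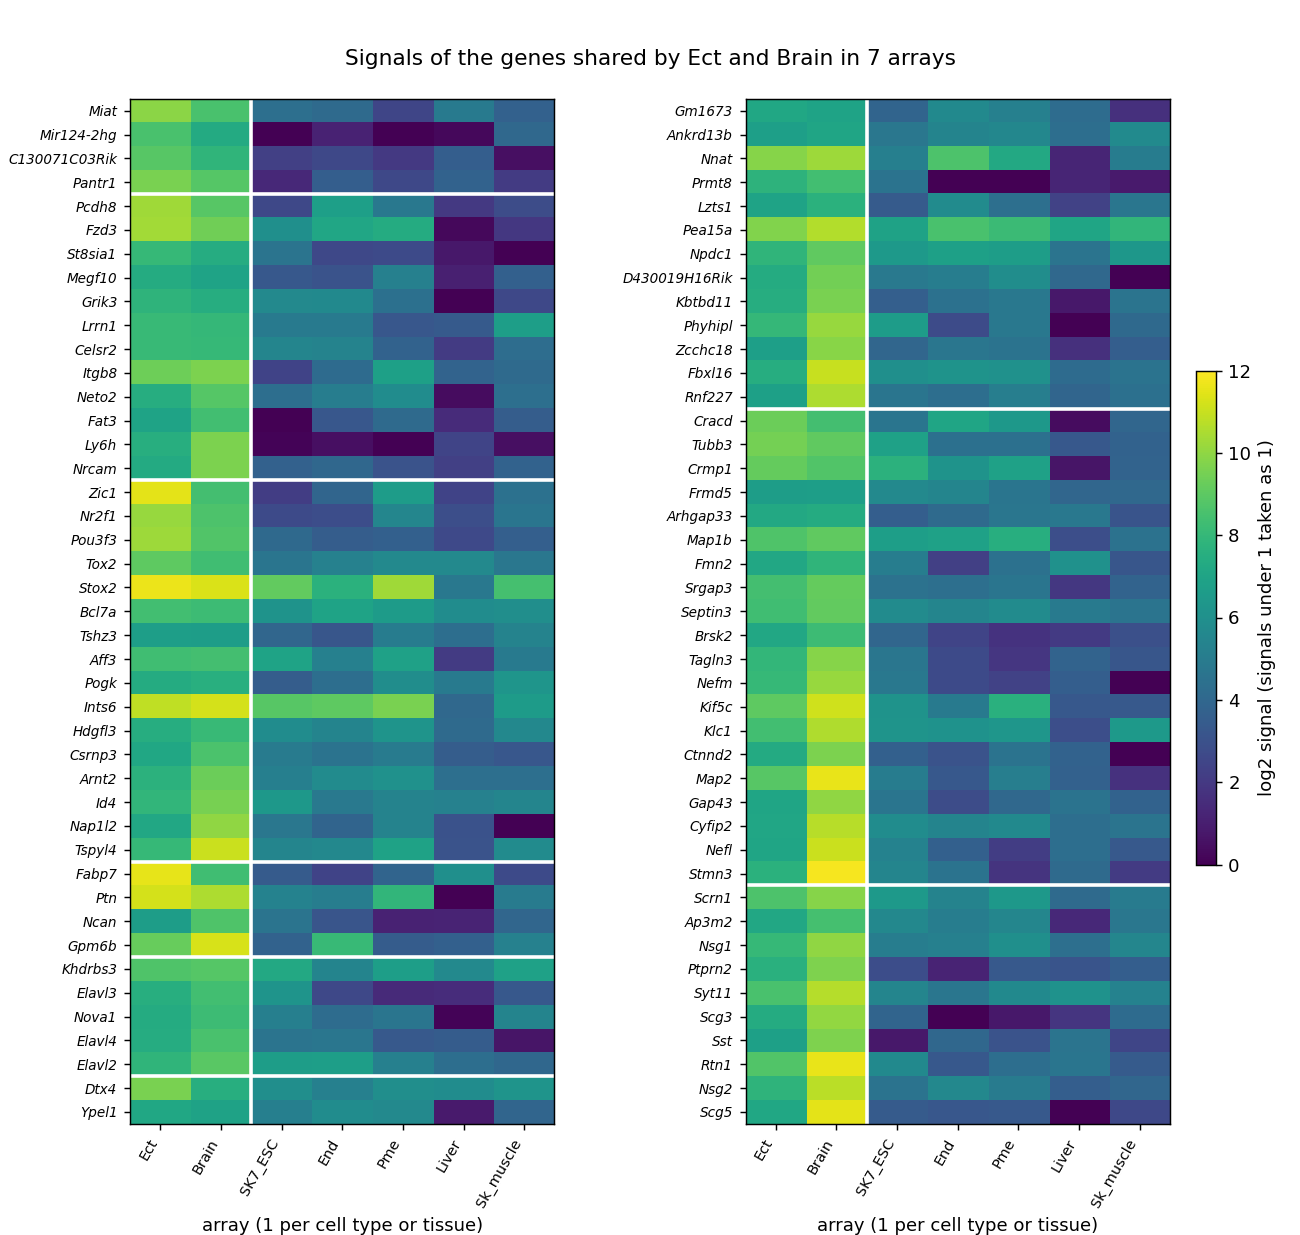
Log2 signals of the 86 shared genes in the 7 arrays, 1 array per column and 1 gene per row, ordered by role group (white horizontal lines) and, within a group, by the ratio of Ect to Brain. The bright columns are Ect and Brain, with medians of 235 and 531, and the 5 columns to the right of the white vertical line have medians between 11.9 and 32.4.

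Although shared, the genes stood at different levels in the 2 samples, and Brain was more often the higher one. Brain was above Ect for 60 genes and Ect above Brain for 26. The median log2 ratio of Ect to Brain was -0.86, which is a median 1.81-fold higher signal in Brain, with quartiles of -2.11 and 0.18 and extremes of -4.37 and 3.23. By a 2-fold limit, 41 genes (47.7%) were higher in Brain, 9 (10.5%) in Ect, and 36 (41.9%) lay within 2-fold. Over all 18194 genes, 12.3% were at least 2-fold higher in Brain and 13.8% in Ect. Among the 4922 genes of at least 100 in both arrays, from which every shared gene comes, the shares were 13.0% and 23.4% and the median log2 ratio was 0.25. The rule itself used both signals, and nothing is read from this contrast. At least 4-fold differences were found in 28 genes toward Brain and 3 toward Ect, and at least 8-fold differences in 8 and 2.

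**Figure D2:**
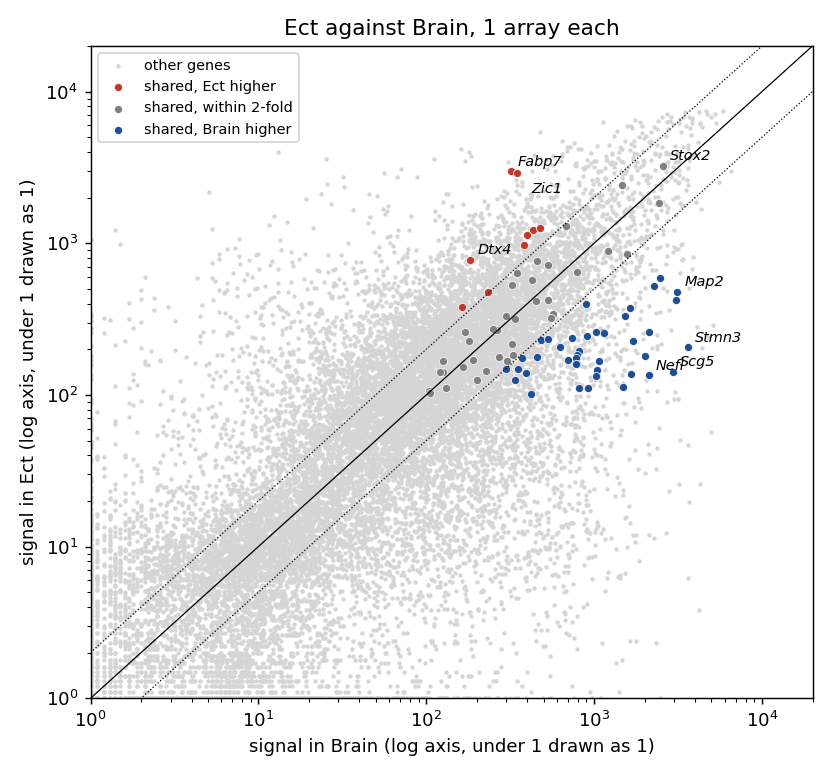
Signal in Ect against signal in Brain on log axes for 18194 genes, 1 array each, with the shared genes in colour: 9 at least 2-fold higher in Ect (red), 36 within 2-fold (dark gray) and 41 at least 2-fold higher in Brain (blue). The solid line marks equal signals and the dotted lines a 2-fold difference, and most shared genes lie to the right of the solid line, toward Brain.

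For description, the 86 genes were placed in 8 groups by what they are known to do. The groups were made after the values had been seen, and 1 gene, Rtn1, was placed in another group than its role list, adhesion and axon guidance. From the most Ect-sided to the most Brain-sided, the median log2 ratio of Ect to Brain was 1.12 for 4 long non-coding RNAs, 0.06 for 12 adhesion molecules and receptors, -0.13 for 16 transcription factors and other nuclear proteins, -0.66 for 4 genes of radial glia, matrix and growth factors, -0.86 for 5 RNA-binding proteins, -0.89 for 15 signalling and other proteins, -1.45 for 20 cytoskeletal genes and -2.40 for 10 secretory granule, vesicle and endosome proteins. Neighbours in this order overlapped widely. At least 2-fold higher in Brain were 0 of the 4 long non-coding RNAs and 10 of the 10 secretory proteins, counts that depend on this placement.

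**Figure D3:**
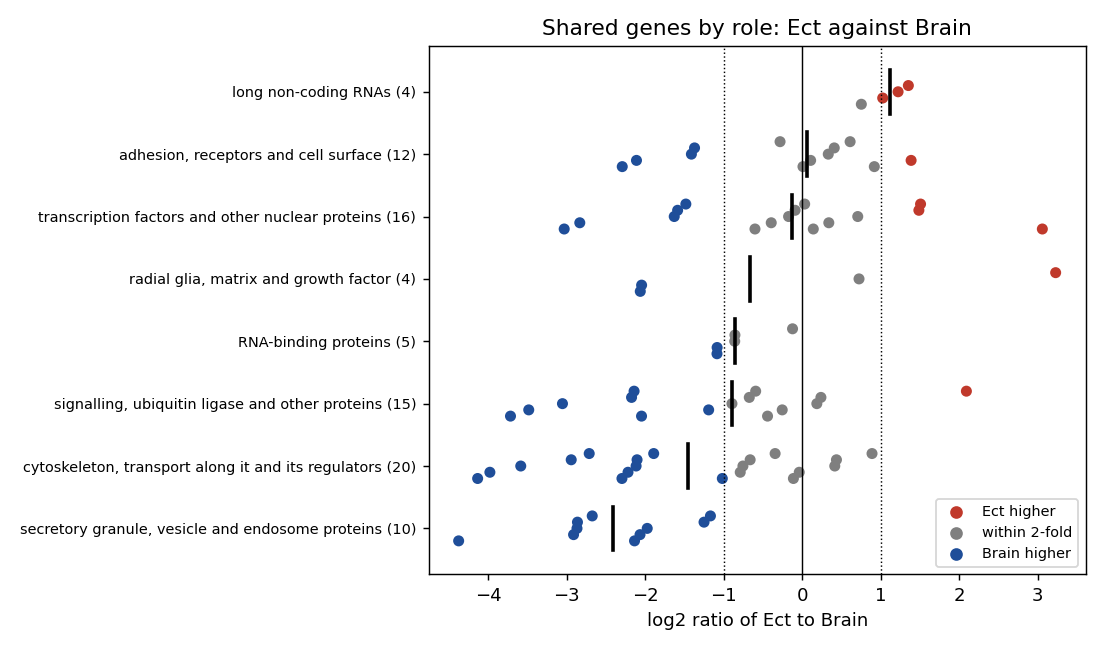
Log2 ratio of Ect to Brain for each shared gene, 1 point per gene, by role group with the number of genes in brackets. Vertical bars are group medians, from 1.12 for long non-coding RNAs to -2.40 for secretory granule, vesicle and endosome proteins, and dotted lines mark 2-fold.

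The transcription factors that were shared included regulators of neural progenitors, and 3 of them were higher in Ect. Zic1, a zinc finger factor of the early neural plate and dorsal neural tube, gave 2888.5 in Ect and 346.2 in Brain, against 98.6 in Pme, 22.2 in Sk_muscle, 15.1 in End, 5.4 in Liver and 4.5 in SK7_ESC. Pou3f3, a POU factor of cortical and other neural progenitors, gave 1219.5 in Ect and 434.8 in Brain, and its other signals were 17.3 in SK7_ESC, 12.7 in Pme, 12.5 in Sk_muscle, 11.6 in End and 6.3 in Liver. Nr2f1, an orphan nuclear receptor that patterns the cortex, gave 1136.7 in Ect and 399.3 in Brain, against 45.1 in Pme, 25.2 in Sk_muscle, 7.4 in Liver, 7.1 in End and 6.4 in SK7_ESC. The ratio of Ect to Brain was thus 8.34 for Zic1, 2.80 for Pou3f3 and 2.85 for Nr2f1. Id4, an inhibitor of basic helix-loop-helix factors, went the other way, with 237.7 in Ect and 735.0 in Brain and at most 85.2 elsewhere.

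Of the other nuclear proteins, 8 lay within 2-fold between Ect and Brain. Tox2, a member of the TOX family of HMG-box proteins, had 528.9 in Ect and 323.5 in Brain and at most 50.8 elsewhere. Stox2, a winged-helix protein, was the gene closest to the limit, with 3246.0 in Ect and 2563.5 in Brain but 1256.9 in Pme, 560.9 in SK7_ESC, 350.7 in Sk_muscle, 202.3 in End and 28 in Liver. Pme was thus well above background too. Ints6, a subunit of the Integrator complex that processes small nuclear RNAs, was similar, with 1843.2 in Ect, 2420.1 in Brain and 773.4 in Pme. Bcl7a, a subunit of the BAF chromatin remodelling complex, Aff3, Hdgfl3, Pogk and Tshz3 had between 106.5 and 330.9 in Ect and between 104.1 and 337.9 in Brain. The remaining 4 were higher in Brain. Tspyl4 had 259.0 in Ect and 2116.0 in Brain, Nap1l2, a histone chaperone of the nucleosome assembly family, had 146.2 and 1040.8, Arnt2, a dimer partner of neuronal bHLH-PAS factors, had 208.5 and 625.7, and Csrnp3 had 140.0 and 390.7.

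Radial glia and their matrix gave 4 shared genes. Fabp7, the brain lipid-binding protein and a standard marker of radial glia, had the largest ratio of Ect to Brain of the whole set, 9.38. It gave 2986.0 in Ect and 318.2 in Brain, against 63.4 in Liver, 14.5 in Pme, 11 in SK7_ESC, 6.4 in Sk_muscle and 5.3 in End. Ptn, pleiotrophin, a heparin-binding growth factor made by radial glia, gave 2420.3 in Ect and 1463.9 in Brain, against 242.5 in Pme, 40.2 in SK7_ESC, 33.7 in End, 32.2 in Sk_muscle and 0.2 in Liver. Gpm6b, a proteolipid of neurons and glia, and Ncan, the brain proteoglycan neurocan, were higher in Brain, by 4.17-fold and 4.12-fold. Gpm6b was the only one of the 4 with a clear signal in End, at 272.3.

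The 4 genes grouped as long non-coding RNAs were above their Brain level in Ect and under background in the 5 other arrays. Another gene that RefSeq lists as non-coding, Rnf227, was grouped with the signalling and other proteins and was 13.1-fold higher in Brain. Miat gave 975.8 in Ect and 381.8 in Brain, and at most 30.5 elsewhere, and Pantr1 gave 769.5 and 456.0, and at most 13.7 elsewhere. Pantr1 and Pou3f3 are neighbours on chromosome 1, with 943 bases between them in the RefSeq annotation, and had defining ratios of at least 9.12 and 8.70. The host transcript Mir124-2hg gave 380.2 in Ect and 162.9 in Brain and at most 16.7 elsewhere. C130071C03Rik, a clone name that is outside the rule for named genes and is given for the microRNA it holds, gave 475.4 in Ect and 233.3 in Brain and at most 12 elsewhere. RefSeq places the gene of miR-9, a microRNA of neural progenitors and neurons, on the same strand inside C130071C03Rik, and that of miR-153 inside Ptprn2, a shared gene that codes for a dense-core granule phosphatase-like protein. The arrays measured the host transcripts and not the microRNAs. RefSeq also places microRNAs on the same strand inside Grik3, Brsk2, Elavl2 and Ncan, which are not shown. The 4 mature microRNAs on the strand of C130071C03Rik and Ptprn2 are shown as examples. They are given 5′ to 3′ from RefSeq GRCm38.p6, with the seed (bases 2 to 8) in capitals. They lie at chr13:83738821-83738843 and chr13:83738858-83738879 for miR-9 and at chr12:117250821-117250843 and chr12:117250860-117250881 for miR-153, all on the plus strand, and none shares its seed with another.
miR-9-5p: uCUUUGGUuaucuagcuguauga
miR-9-3p: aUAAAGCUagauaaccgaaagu
miR-153-5p: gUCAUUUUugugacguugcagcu
miR-153-3p: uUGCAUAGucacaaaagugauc

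Of the RNA-binding proteins, 3 of the neuronal Hu family were shared. These proteins bind AU-rich and U-rich sequences and act on splicing and stability of neuronal transcripts. Elavl3 gave 182.4 in Ect and 330.0 in Brain, with 73.0 in SK7_ESC and at most 9.9 in the other arrays. Elavl4 gave 174.8 in Ect and 370.1 in Brain and at most 26.5 elsewhere. Elavl2 gave 228.9 and 485.2, and was above background in End and SK7_ESC as well, at 107.5 and 102.3. A brighter probe set of Elavl2 gave 618.3 in Ect and 1065.3 in Brain, with 297.8 in End and 305.3 in SK7_ESC. Another gave 433.7 and 645.5, with 203.2 in End and 222.4 in SK7_ESC, and missed the rule with a ratio of 1.95. In the probe sets used, Brain was higher by 1.81, 2.12 and 2.12-fold for Elavl3, Elavl4 and Elavl2. Nova1, a neuronal splicing regulator, was at 166.5 in Ect and 301.8 in Brain, and Khdrbs3, a splicing factor of the STAR family, was nearly equal at 415.4 and 451.9.

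The cytoskeleton formed the largest group, with 20 genes, and in 17 of them Brain was above Ect. Map2, which binds microtubules in dendrites, had the highest defining ratio of the set at a background of 50, 9.58, which is a lower bound. With signals raised only to 20 it was 13.7, under the 22.8 of Pantr1 and the 21.7 of Pou3f3. It gave 479.1 in Ect and 3138.4 in Brain, against 35 in Pme, 32.9 in SK7_ESC, 13.2 in Liver, 9.8 in End and 3.3 in Sk_muscle. The neurofilament genes Nefl and Nefm, which lie 30450 bases apart on chromosome 14, gave 134.4 and 261.5 in Ect, and 2116.3 and 1122.8 in Brain. In the probe sets used, both were under background in all 5 other arrays, where the highest signal was 40.3 for Nefl and 27.5 for Nefm, in SK7_ESC. A second probe set of Nefl gave 130.1 in SK7_ESC. Stmn3, a stathmin that destabilizes microtubules, gave 205.9 in Ect and 3612.3 in Brain and at most 43.8 elsewhere, a 17.5-fold difference between the 2. The probe set used for Stmn3 is marked for shared sequence, and Stmn3 left the set when such probe sets were left out. Its other probe set gave 77.8 in Ect and 1748.2 in Brain, with a defining ratio of 1.56 that misses the rule. Gap43, a growth cone protein, gave 133.6 in Ect and 1025.9 in Brain and at most 25.2 elsewhere.

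Not every cytoskeletal gene was so much higher in Brain. Tubb3, the tubulin by which young neurons are usually recognized, gave 721.2 in Ect and 532.4 in Brain, with 116.3 in SK7_ESC and between 9.8 and 21.8 in the other 4 arrays. Map1b, a microtubule-associated protein of growing axons, gave 419.4 and 532.1, and Crmp1, which acts in semaphorin signalling, gave 569.1 and 426.4, with 186.2 in Pme for Map1b and 206.3 in SK7_ESC for Crmp1. Srgap3, a GTPase activator of the Slit-Robo pathway, gave 339.7 and 572.7 and at most 25 elsewhere, and Septin3 gave 319.9 and 552.3 and at most 56.1 elsewhere. Cracd, a regulator of actin capping, stood at 639.6 in Ect and 344.9 in Brain. Frmd5, Arhgap33 and the formin Fmn2 lay within 2-fold, between 102.5 and 153.3 in Ect and between 105.1 and 228.1 in Brain. The motors of axonal transport were higher in Brain: the kinesin heavy chain Kif5c gave 525.8 in Ect and 2276.8 in Brain, and the kinesin light chain Klc1 gave 329.8 and 1533.9. Cyfip2, a part of the WAVE complex for actin branching, gave 137.8 in Ect and 1652.2 in Brain, Tagln3 gave 245.0 and 908.2, and Ctnnd2, a catenin of the synaptic junction, gave 159.8 and 784.0. Brsk2, a kinase of neuronal polarity, was just past the limit with 147.9 and 299.1.

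Cell adhesion molecules and receptors were closer to equal. Pcdh8, a protocadherin, was the only one at least 2-fold higher in Ect, with 1253.1 in Ect and 478.5 in Brain, against 109.5 in End, 27.5 in Pme and at most 6.9 in SK7_ESC, Liver and Sk_muscle. Celsr2, a seven-pass cadherin of planar polarity, gave 267.4 and 265.3, and Lrrn1, a leucine-rich repeat protein, gave 270.8 and 251.1, with 107.0 in Sk_muscle. Itgb8, the beta subunit of an integrin that activates TGF-beta, gave 647.5 in Ect and 786.5 in Brain, with 111.3 in Pme. Fzd3, a Wnt receptor needed for axon tracts, gave 1293.1 in Ect and 683.3 in Brain, with 166.7 in Pme and 138.1 in End. Of 82 measured ion channels and neurotransmitter receptors, 3 reached 100 in both Ect and Brain, the level the rule needs. Of these, only Grik3 was in the set. It codes for a kainate receptor subunit and gave 227.2 in Ect and 180.3 in Brain, and at most 51.3 elsewhere. Neto2, an auxiliary subunit of kainate receptors, gave 177.4 and 458.5. St8sia1, the synthase of ganglioside GD3, gave 261.8 and 171.3, and Megf10, an engulfment receptor, gave 167.4 and 126.0. Nrcam, an axonal adhesion molecule, Fat3, a giant cadherin, and Ly6h were higher in Brain, by 4.89, 2.66 and 4.32-fold, and all 3 were under background in the 5 other arrays.

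The 10 genes grouped as secretory granule, vesicle and endosome proteins were each at least 2-fold higher in Brain. Scg5, the chaperone of a prohormone convertase, showed the largest difference of the whole set: it gave 142.0 in Ect and 2946.1 in Brain, or 20.7-fold, against 10.9 in SK7_ESC, 10.3 in Pme, 9.6 in End, 6.1 in Sk_muscle and 1.0 in Liver. Rtn1, a reticulon of the endoplasmic reticulum, gave 421.7 in Ect and 3077.1 in Brain, with 51.2 in SK7_ESC and at most 25.5 in the other 4. Scg3, a granin of dense-core granules, gave 167.5 in Ect and 1068.4 in Brain and at most 18.6 elsewhere. Sst, the neuropeptide somatostatin, gave 111.4 and 809.5 and at most 24.8 elsewhere. The endosomal proteins Nsg1 and Nsg2 gave 260.2 and 227.1 in Ect, and 1021.2 and 1708.0 in Brain. Syt11, a synaptotagmin, gave 372.6 and 1635.9, and Ptprn2 gave 194.4 and 813.1. Scrn1 and Ap3m2, the latter a subunit of the adaptor complex AP-3, had the smallest differences, 2.25-fold and 2.38-fold. As the rule required of every shared gene, all 10 were above background in Ect, where their signals lay between 111.4 and 421.7.

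Of the signalling and other proteins, Dtx4, a ubiquitin ligase of the Deltex family that acts in Notch signalling, was the only one at least 2-fold higher in Ect, with 780.0 in Ect and 182.8 in Brain and between 37.4 and 74.3 elsewhere. Its second probe set gave 351.5 in Ect and 53.3 in Brain but 99.3 in Liver, above Brain. Dtx4 stayed in the set in 9 of 14 alternative ways of processing, but most of these could not remove a gene. It was lost with a background of 100, quantile normalization, equal medians, averaged probe sets and a 3-fold limit. Of the alternatives that could remove it, only leaving out probe sets marked for shared sequence kept it. Nnat, an imprinted proteolipid, gave 890.2 in Ect and 1207.6 in Brain, with 400.5 in End and 149.8 in Pme, and Pea15a, an adaptor of death-effector signalling, gave 848.6 and 1576.2, with 381.4 in End. Prmt8, an arginine methyltransferase found in brain, gave 216.6 and 326.3 and at most 23.4 elsewhere. Lzts1, Ankrd13b and Ypel1 were under 150 in Ect and lay within 2-fold. Fbxl16, an F-box protein, had 180.8 in Ect and 2020.0 in Brain, Rnf227 had 113.0 and 1483.3, and Zcchc18 had 110.8 and 919.1. Kbtbd11, Phyhipl and Npdc1 were also higher in Brain, by 4.41, 4.51 and 2.28-fold. The other 2 genes of this group carry model or clone names only.

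The wider neural gene lists showed which kinds of genes were shared and which were at least 2-fold higher in Ect or in Brain than in all other arrays. Genes called high in Ect alone or in Brain alone could still be above background in the other, as Scn8a was, with 78.7 in Ect and 768.8 in Brain. The 12 lists held 646 measured genes, of which 37 were shared, 46 were at least 2-fold above the other 6 arrays in Ect alone, and 242 in Brain alone. For all 18194 genes these counts were 86, 119 and 1182. With shared genes included, 0.704% of all genes were at least 2-fold above the other 6 arrays in Ect and 6.72% in Brain, and these hold, by the rule itself, the 9 shared genes higher in Ect and the 41 higher in Brain. Of 48 neuronal cytoskeleton genes, 11 (22.9%) were shared, the highest percentage of any list, while 4 were high in Ect alone and 14 in Brain alone. RNA-binding and chromatin genes followed with 4 of 30 (13.3%), then progenitor transcription factors with 4 of 45 (8.89%), radial glia and astrocyte genes with 4 of 47 (8.51%), and synaptic and secretory genes with 5 of 60 (8.33%). Adhesion and axon guidance genes gave 6 of 104 and signalling and calcium-binding genes 3 of 86. The rule needs a signal of 100 in both Ect and Brain. Among genes that reached it, the set held 11 of 33 neuronal cytoskeleton genes and 4 of 13 RNA-binding and chromatin genes. It held 4 of 10 progenitor transcription factors, 4 of 18 radial glia and astrocyte genes and 5 of 8 synaptic and secretory genes. By this measure synaptic and secretory genes, and not the cytoskeleton, had the highest share among these lists. Of 52 regional identity factors 0 reached a signal of 100 in both, so that 0 shared genes were fixed, and 26 were under background in all arrays. Of 42 proneural and Notch genes, 3 reached it, so that few could be shared. Regional identity factors gave 0 of 52 and proneural and Notch genes 0 of 42, while 8 and 9 genes of these lists were high in Ect alone. All of these were under background in Brain except Notch1, a Notch receptor, at 253.0 in Ect and 70.0 in Brain. Examples were Hoxb2, a hindbrain Hox gene, with 591.4 in Ect and 4.3 in Brain, and Hes5, a Notch target of progenitors, with 671.5 and 28.7. In the other direction, 44 of 60 synaptic and secretory genes, 54 of 82 channels and receptors, 12 of 30 transmitter genes and 16 of 25 myelin genes were high in Brain alone, and 0 of them in Ect alone. Snap25, a synaptic fusion protein, had 57 in Ect and 4949.9 in Brain. No test of the differences between lists is given.

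**Figure D4:**
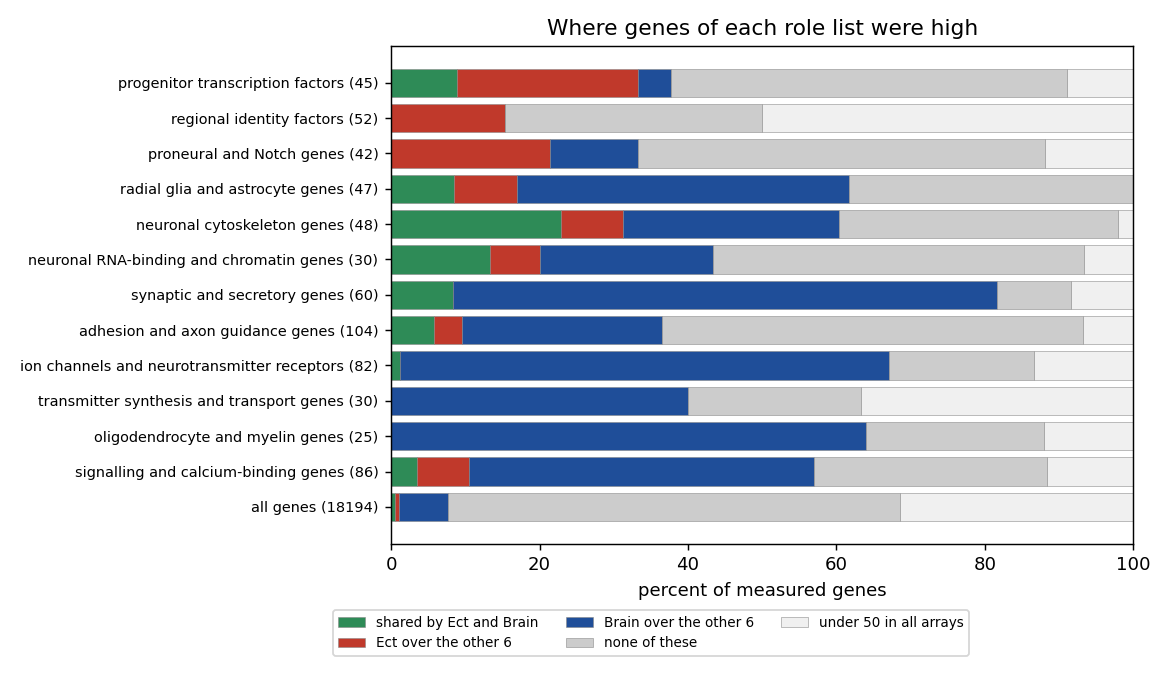
Percent of the measured genes of each role list, with the number measured in brackets, that were shared by Ect and Brain (green), at least 2-fold above the other 6 arrays in Ect (red) or in Brain (blue), in none of these classes (mid gray), or under background in all arrays (light gray). Green is longest for neuronal cytoskeleton genes, at 22.9%, and absent from regional, proneural, transmitter and myelin genes, and the bottom bar shows all 18194 genes.

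Several genes of these lists missed the set because another array was bright. Tuba1a, the main neuronal alpha tubulin, gave 6123.7 in Ect and 4262.6 in Brain but 4938.5 in Pme, 4865.5 in End and 3987.7 in SK7_ESC. Stmn1, a stathmin of dividing cells and neurons, gave 3791.5 and 3187.1, with 3076.6 in End. Sox2, the factor of ES cells and neural progenitors, gave 2368.9 in Ect and 373.9 in Brain but 3029.7 in SK7_ESC. The 5 shared genes just inside the limit were Ankrd13b at 2.08, Crmp1 at 2.07, Frmd5 at 2.05, Ncan at 2.04 and Stox2 at 2.04. Just outside it were Cdk5r1 at 1.98, Epha7 at 1.96, Soga3 at 1.95, Slain1 at 1.94 and Tram1l1 at 1.94. Of these, Cdk5r1, the activator of a neuronal kinase, failed by its Ect signal of 99.0, and Epha7, an ephrin receptor, by 134.2 in End. The 2 sides of the limit are thus alike in size.

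Which of the other arrays bounded the set could be seen by leaving each out. Without Pme the set grew to 133 genes, without Sk_muscle to 103, without End to 101, without SK7_ESC to 100 and without Liver to 94, and the genes named next were chosen after their values had been seen. The 47 genes held out by Pme included Meis2, a TALE homeobox factor, with 950.9 in Ect, 567.7 in Brain and 833.8 in Pme, and Ncam1, the neural cell adhesion molecule, with 278.4, 371.9 and 290.5. The 14 held out by SK7_ESC included Ckb, brain creatine kinase, with 969.9 in Ect, 2712.3 in Brain and 626.6 in SK7_ESC, and the 17 held out by Sk_muscle included Ednrb, an endothelin receptor of glia and neural crest, with 763.1, 346.1 and 375.5. In each of these genes another sample stood near the level of Ect or Brain.

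Other probe sets of the same genes gave a second reading. Of the 86 genes, 56 had further probe sets, 110 in all, and 38 of these were under background in every array. Above background in both Ect and Brain were 50, from 34 genes. Of these 50, 46 had Ect and Brain as the 2 highest arrays. The order of Ect and Brain was that of the probe set used in 46. These 50 were chosen by their signals in the same 2 arrays, which favours Ect and Brain as the highest. Others of the 110, some of them above background in only 1 of Ect and Brain, were not counted for agreement. Of the 50, 20, from 15 genes, met the rule on their own. All 4 further probe sets of Syt11 met it, as did the second ones of Zic1, with 1213.3 in Ect and 178.0 in Brain, of Pcdh8, with 1421.0 and 853.0, and of Nefl, with 304.0 and 1960.1. Other genes rested on 1 probe set. For Ints6, the 3 further probe sets had SK7_ESC or Pme as their highest array and between 42.7 and 156.5 in Ect. For Klc1, 1 of 2 further probe sets reversed the order, with 166.0 in Ect and 56.5 in Brain. The order was also reversed, toward Brain, in a further probe set of Celsr2, with 91.5 in Ect and 111.8 in Brain. The same held for 2 further probe sets of Stox2, with 220.4 and 150.5 in Ect and 330.0 and 176.0 in Brain. For Fzd3, none of the 5 others was above background in Brain, although 3 of them were above it in Ect, at 275.6, 201.9 and 90.4. Probe sets of a gene can bind different transcript forms, which the deposited table does not tell apart.

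**Figure D5:**
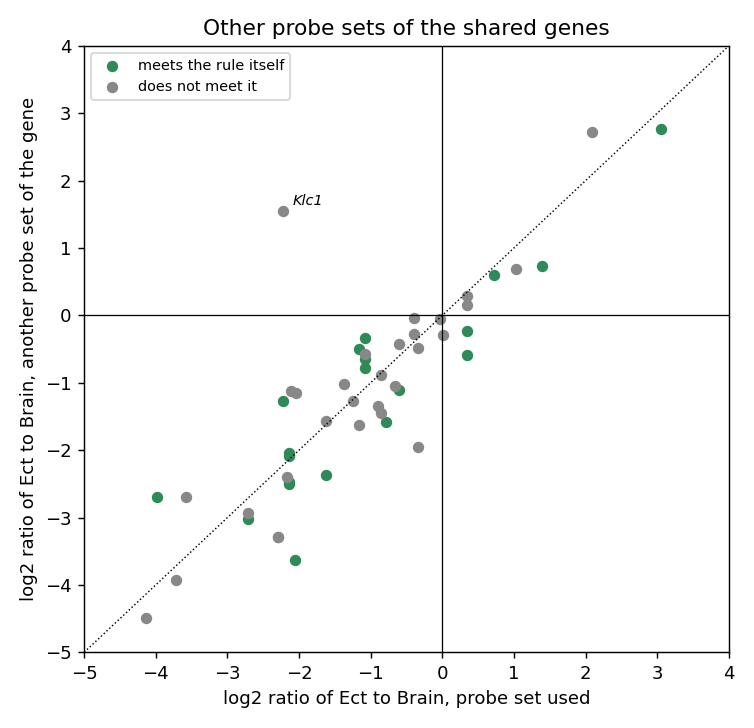
Log2 ratio of Ect to Brain in 50 further probe sets of the shared genes (vertical axis) against that in the probe set used for the same gene (horizontal axis), for probe sets above background in both samples. Green points meet the rule on their own (20) and gray points do not, the dotted line marks equal ratios, and the labelled probe set of Klc1 lies far above it.

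Features outside the arrays' signals were also described. All 86 genes were matched to RefSeq by identifier, 81 as protein-coding and 5 as long non-coding RNA, the fifth being Rnf227. The median gene length was 44.6 kb, against 20.3 kb over all genes and 25.6 kb over genes of at least 100 in both Ect and Brain. Genes over 100 kb made up 29.1% of the set and 12.4% of all genes. A window of 250 bases before the gene start was given for 67 of the shared genes and for 14368 genes in all. Where several starts were listed for a gene, as the 6 of Elavl2, only the first was used. The counts of CG pairs and motifs below thus leave out the other starts. It held a median of 15 CG pairs in the shared genes and 13 in all genes, and at least 10 pairs in 74.6% against 59.5%. The windows of 3 genes with large defining ratios or differences are shown for this range, from RefSeq GRCm38.p6, 5′ to 3′ on the plus strand, with each CG pair in capitals. Map2 (chr1:66175079-66175328) had 34 pairs, Pou3f3 (chr1:42695518-42695767) 15 and Fabp7 (chr10:57784673-57784922) 4.
Map2: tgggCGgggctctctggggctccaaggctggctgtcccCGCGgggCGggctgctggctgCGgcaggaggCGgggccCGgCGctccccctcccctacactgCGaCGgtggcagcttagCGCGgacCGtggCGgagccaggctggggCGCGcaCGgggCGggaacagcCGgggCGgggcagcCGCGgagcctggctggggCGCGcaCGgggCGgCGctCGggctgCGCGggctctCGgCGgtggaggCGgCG
Pou3f3: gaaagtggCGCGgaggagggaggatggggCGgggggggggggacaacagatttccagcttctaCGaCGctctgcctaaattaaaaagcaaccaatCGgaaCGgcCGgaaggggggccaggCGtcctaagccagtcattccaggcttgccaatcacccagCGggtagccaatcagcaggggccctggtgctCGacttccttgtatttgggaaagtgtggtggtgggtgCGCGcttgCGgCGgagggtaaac
Fabp7: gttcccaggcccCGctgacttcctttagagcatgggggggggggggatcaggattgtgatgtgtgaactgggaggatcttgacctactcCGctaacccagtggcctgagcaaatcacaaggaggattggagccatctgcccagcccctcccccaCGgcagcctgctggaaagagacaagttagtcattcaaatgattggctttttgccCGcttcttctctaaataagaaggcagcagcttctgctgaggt

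Short motifs were counted in the same windows on both strands. TGACGTCA, the palindrome of the cAMP response element, was found in 6 of 67 shared genes (8.96%) and in 328 of 14368 genes (2.28%). CAGCTG, an E-box, was found in 17.9% against 12.5%, ACAAAG, a core bound by SOX and TCF proteins, in 16.4% against 13.8%, and ATTTGCAT, the octamer of POU factors, in 2.99% against 1.39%. TTCAGCACC, the left side of the RE1 element bound by REST, was found in 0 of the 67 windows, against 0.292% of all genes, and the right side of that element in 2 (2.99%), Brsk2 and Id4, against 0.557%. A match describes letters only and shows no binding. The 6 stretches of 30 bases around TGACGTCA are shown since this 8-letter motif was found in 6 shared genes, where the right side of RE1, whose share was further from that of all genes in relative terms, was found in 2. They are from RefSeq GRCm38.p6, 5′ to 3′ on the strand of the gene, with the motif in capitals. They lie at chrX:166238883-166238912 (plus strand) for Gpm6b, chr2:49619249-49619278 (plus) for Kif5c, chr12:111758824-111758853 (plus) for Klc1, chr1:166409875-166409904 (minus) for Pogk, chr16:23890874-23890903 (minus) for Sst and chr10:34297377-34297406 (plus) for Tspyl4.
Gpm6b: gcccccggcgcTGACGTCAgggcccctctc
Kif5c: gatctctgcagTGACGTCAccgtgccgagg
Klc1: gcgagggcgggTGACGTCAcggcgcacagc
Pogk: ccgagacctgcTGACGTCAccgcccctagc
Sst: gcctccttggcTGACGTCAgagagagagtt
Tspyl4: agctggtatccTGACGTCAcaggttgccat
In these 6 genes the motif started between 26 and 65 bases before the gene start. Of these 6, 5 were at least 2-fold higher in Brain, and Pogk was at 169.1 in Ect and 190.5 in Brain. Over all 86 shared genes 41 (47.7%) were so, but this share includes genes without a window and is not a matched one. A link between the motif and the level in Brain was not tested. The order of Klc1 was reversed in another of its probe sets, as given above.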

How the data were processed

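The authors deposited a table of linear signal intensity for 45101 probe sets in 7 GeneChip arrays, normalized globally so that the average of an array is 100. How probes were combined into a signal is not given in the sources used. RNA was prepared with RNeasy columns per the labels and with TRIzol per the methods. Gene names came from the platform annotation: 34958 probe sets had 1 symbol, 932 had several and 9211 were unnamed here. Probe sets with 1 symbol gave 18194 genes, each represented by its probe set of highest mean log2 signal, with signals under 1 taken as 1. Signals under 50 were raised to 50 for ratios, so that a ratio against such a signal is a lower bound. Signals of different probe sets are not on 1 scale and were not ranked against each other. Calls were by 2-fold size, without p-values, since each group has 1 array, and this number limits the precision.

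The shared genes, the 12 role lists and the 13 marker lists were chosen with earlier results of these data known. Named genes were up to 6 shared genes of each role list, the 25 with the largest defining ratio, the 10 with the largest ratio of Ect to Brain and the 10 of Brain to Ect, the 5 on each side of the limit, marker genes, and up to 3 genes of each list that missed the rule. Predicted genes and clone names were left out, except C130071C03Rik, which was named after its values had been seen. Other shared genes were named for a known role after their values had been seen. Alternatives covered the background, the normalization, the choice of probe set, the fold and the arrays compared with. The calculation of the rule was checked on copies of the real signals with planted ratios. This checks the arithmetic only and cannot measure false calls. Python 3.11.15 with numpy 2.4.6, pandas 2.3.3, scipy 1.17.1 and matplotlib 3.10.9 was used. DNA methylation was not analysed here.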

Additional observations from a re-analysis of the deposited data

Results flagged for a closer look

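Outside the genes described above, 10143 probe sets carried several gene symbols or none, and 7 of them (0.069%) met the same rule for Ect and Brain, with ratios up to 5.38. They stood apart from the main measurement because no single gene could be given for them. Of the 7, 4 had several symbols and 3 had none. The one with the highest ratio had no symbol and gave 379.0 in Ect and 269.1 in Brain, against at most 5.9 in the other 5 arrays. Of the 4 with several symbols, 1 was annotated to Pou3f3 together with a clone-named transcript and gave 168.4 in Ect and 102.9 in Brain, and the other 3 were annotated to predicted and clone-named genes.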

How the results depend on the processing

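The main rule gave 86 shared genes, of which 9 were at least 2-fold higher in Ect and 41 in Brain. Raising signals only to 20 gave 165, 15 and 90, and all 86 were among the 165. Raising them to 100 gave 46 genes, 18 of them higher in Brain. Averaging all probe sets of a gene on the log scale gave 55, 23 of them higher in Brain. A 3-fold limit gave 41 shared genes, with 2 at least 3-fold higher in Ect and 16 in Brain. Leaving Pme out of the other arrays gave 133 shared genes, 14 of them higher in Ect. All other counts stayed within 1.5 times the main ones, and more genes were higher in Brain than in Ect under each of the 14 alternatives. Scaling to equal medians gave 13 and 35, so that 27.1% of the genes that differed were higher in Ect, against 18.0% by the main rule. The alternatives without End, Liver or Sk_muscle were chosen after seeing the data. Of the 86 genes, 19 were kept in every alternative, and 35 in all but the 3-fold limit and the background of 100. Among the 19 were Map2, Pantr1, Pou3f3, Nr2f1, Fabp7, Zic1, Rtn1, Tubb3 and Syt11. Some alternatives could not remove a gene. These raised signals only to 20, took any probe set, left out 1 array or kept genes above background in any array. No paired analysis was possible because each group has 1 array. Genes under a signal of 100 in the dimmer of Ect and Brain cannot pass a 2-fold limit over a background of 50, so that dim shared genes are missed.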
